A study of Mus musculus with 9 samples.

Results

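The collagen and laminin genes build the scaffold of the extracellular matrix, and their transcripts were followed across 9 clones of the mouse embryonic stem cell line E14. A gene was taken as a member when it was protein-coding and its symbol had the form Col, number, a, number, or Lama, Lamb or Lamc with a number. The rule found 55 genes, 44 collagens and 11 laminins, among 35580 genes. Of these, 38 members (29 collagens and 9 laminins) had a mean of at least 1 CPM (counts scaled to a common library size) over the clones and the other 17 did not.

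Each clone was derived from a bulk culture of the line, picked for lipid droplet size, and expanded on gelatin with serum and leukaemia inhibitory factor, which holds mouse stem cells in a self-renewing state. The clones' genotype beyond the line, and any treatment, are not stated, and poly(A) RNA was sequenced from 1 library per clone. No label used here gives a clone its droplet size, so the clones stand without groups, no comparison between groups was made, and each clone is 1 sample. A difference between clones could not be set against the spread between cultures of 1 clone, and intervals given with folds cover counting error only.

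Collagens are trimers of chains with a long glycine-rich repeat that winds into a helix. Type IV collagen forms the sheet-like network of basement membranes, fibrillar collagens (types I, II, III, V, XI, XXIV and XXVII) form banded fibres, and fibril-associated, beaded-filament, anchoring and transmembrane types link or decorate them. Laminins are cross-shaped trimers of 1 alpha, 1 beta and 1 gamma chain, whose polymer is the first layer of a basement membrane. The trimer of the Lama1, Lamb1 and Lamc1 products is the laminin of the early embryo, and the trimers with the Lama5 chain are the form on which pluripotent cells attach well in culture.

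Libraries held 10783718 to 14309662 estimated counts, with a median of 13802506. Finding no read of a gene left room for a level of 0.209 CPM in the clone where this limit was lowest and 0.293 CPM where it was highest. All 10 stem cell markers examined passed the filter, with Pou5f1 at 851 to 1289 CPM and Sox2 at 236 to 301 CPM. Whole chromosomes differed in level between clones: the median gene of chromosome 8 lay 0.26 to 0.32 log2 units above its median clone in clones 8, 10, 14 and 17. On chromosome 11 the median gene lay at -0.40 to -0.36 in clones 8, 14 and 17. Below, 9 values in a row stand for clones 1, 4, 6, 8, 10, 11, 13, 14 and 17, in that order, and are CPM scaled by effective library size unless said otherwise. The range of a gene is its highest minus its lowest clone in log2 CPM, computed with a prior count of 2, which understates the fold of genes with few counts.

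Large differences over the clones were common among the members. A range of 2 or more log2 units was seen in 13 of the 38 members, against 7.92% of the 13378 genes of at least 1 CPM. The count was 20 with protein-coding transcripts alone, 5 at 5 CPM or more and 2 by log2(TPM + 1), against 9.18, 3.39 and 3.17% of genes. Because the filter takes the mean over all clones, a gene can pass it through a few clones where it is high. Without a filter 18 of 55 members had a range of 2 or more, against 11% of genes. At the filter of 1 CPM, a range of 1 or more was seen in 29 members, against 35.3% of the 13378 genes. The median range was 1.84 for the members and 0.78 for all those genes, or 0.77 for the 12822 protein-coding ones. Because low genes range more through counting alone, the same was computed at 5 CPM or more: there the median was 1.16 for 17 members and 0.67 for 10414 genes. Counts differed beyond counting noise (Poisson chi-square over the 9 libraries, Benjamini-Hochberg adjusted over all genes tested) in 36 members, against 89.4% of genes. Col22a1 and Col8a2 were the 2 that did not pass this test. These counts describe the libraries and no list test was made. In bulk RNA a larger share of cells that express a gene and more RNA per cell cannot be told apart.

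**Figure D1:**
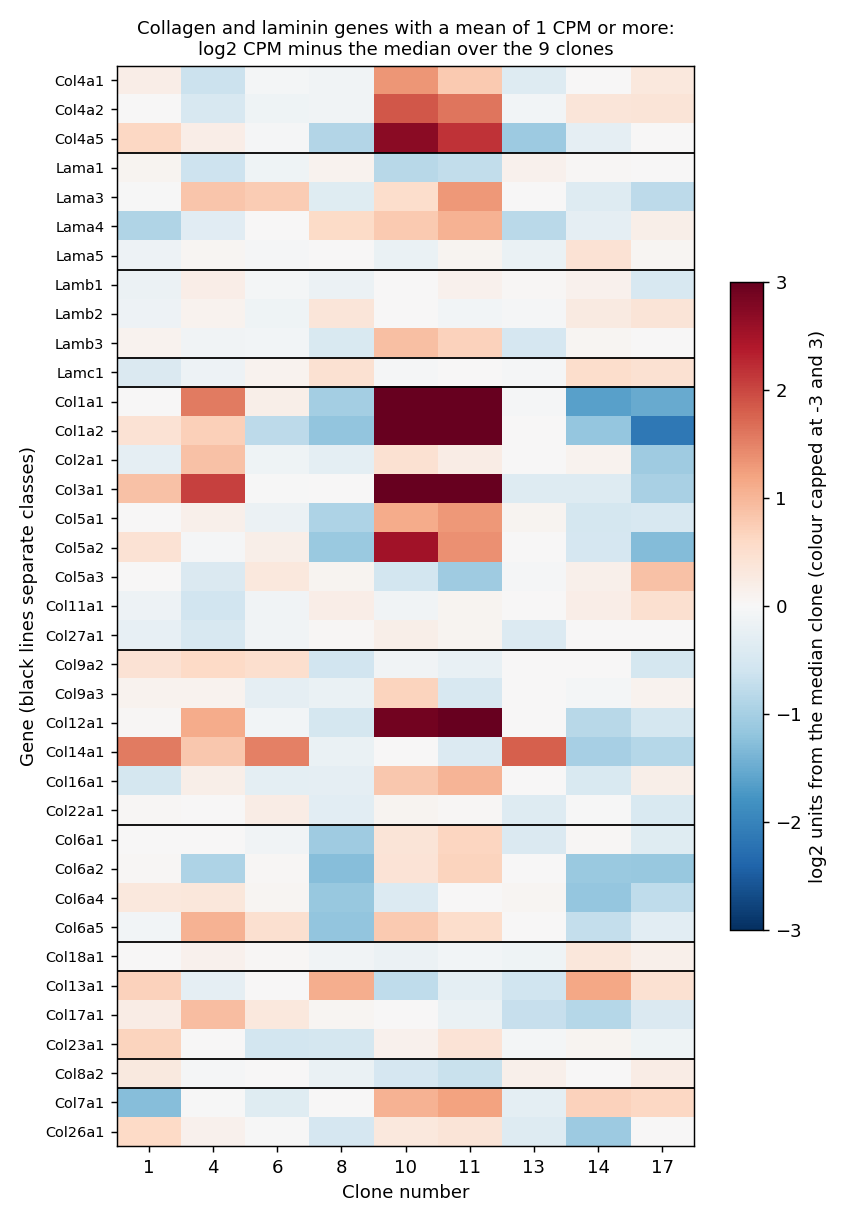
Heat map of 37 of the 38 members with a mean of at least 1 CPM (rows, in classes parted by black lines) over the 9 clones (columns). Colour is log2 CPM minus the gene's median over clones, capped at 3 log2 units either way. Type IV chains, Col12a1 and the fibrillar genes Col1a1, Col1a2, Col3a1, Col5a1 and Col5a2 are red in clones 10 and 11, while Lama1 is blue there and the most abundant genes are pale throughout.

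The genes of type IV collagen lie in head-to-head pairs that share the stretch around their starts as promoter. Col4a1 (chromosome 8, 11198423 to 11312826, minus strand) and Col4a2 (chromosome 8, 11312805 to 11449287, plus strand) encode the chains of the commonest type IV network. They start 21 bases apart in GRCm38 and overlap, with the Col4a2 start inside the Col4a1 gene. Their promoter windows (250 bases before to 50 after the start, reference sequence of RefSeq, GRCm38.p6) are printed because both chains shared much of their pattern over clones. Capitals mark CCAAT, known as the CCAAT box, or ATTGG on the opposite strand. They also mark GGGCGG, the GC box, or its opposite CCGCCC, and TATAAA, the TATA box, whose opposite is TTTATA. A match is a description of letters only.
Col4a1 (chr8:11312777-11313076, minus strand): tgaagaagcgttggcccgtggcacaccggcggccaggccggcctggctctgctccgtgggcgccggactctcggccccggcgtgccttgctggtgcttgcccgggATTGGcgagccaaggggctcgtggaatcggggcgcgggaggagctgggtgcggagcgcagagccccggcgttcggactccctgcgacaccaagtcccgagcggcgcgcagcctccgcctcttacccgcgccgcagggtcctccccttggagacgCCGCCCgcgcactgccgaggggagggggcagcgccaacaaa
Col4a2 (chr8:11312555-11312854, plus strand): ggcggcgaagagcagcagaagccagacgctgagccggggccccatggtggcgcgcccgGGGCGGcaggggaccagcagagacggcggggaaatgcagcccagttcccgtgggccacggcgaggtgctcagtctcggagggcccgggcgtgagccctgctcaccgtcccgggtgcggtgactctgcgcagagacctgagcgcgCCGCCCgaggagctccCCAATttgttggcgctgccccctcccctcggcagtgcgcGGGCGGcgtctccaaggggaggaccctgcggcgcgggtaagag
The 2 windows overlap by 78 bases. The GGGCGG that lies 7 bases after the Col4a2 start and the CCGCCC 9 bases after the Col4a1 start are the same letters, at 11312812 to 11312817, read from opposite strands. Neither window holds TATAAA on either strand.

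Both chains were highest in clones 10 and 11. Col4a1 was at 55.9, 31.1, 46.5, 44.8, 122, 84.2, 37.2, 48.6 and 60.1 CPM (3.93-fold, 95% interval 3.53 to 4.39, from clone 4 to clone 10). Col4a2 was at 12.6, 8.92, 11.4, 11.6, 46.4, 38.8, 11.9, 16.3 and 16.5 CPM (5.2-fold, 95% interval 4.26 to 6.38, between the same clones). For both genes the next clone was 17, at 60.1 and 16.5 CPM, and clone 4 was lowest. Clones 10 and 11 were the 2 highest in 10.4% of all genes. Col4a5 (chromosome X, 141475385 to 141689234, plus strand), a chain of the kidney and smooth muscle networks, was at 1.07, 0.762, 0.628, 0.285, 5.07, 3.42, 0.227, 0.51 and 0.647 CPM, again highest in clones 10 and 11, and its lowest value, in clone 13, rests on 3 counts (22.4-fold, interval 7.35 to 111). Summed type IV transcripts stood at 70.2, 41.3, 59.4, 57.2, 175, 127, 49.5, 66.1 and 77.6 CPM, a 4.22-fold span from clone 4 to clone 10, and Col4a1 and Col4a2 made up nearly all of that sum. The remaining chains, Col4a3, Col4a4 and Col4a6, did not pass the filter and reached at most 0.488, 0.419 and 0.471 CPM.

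Col4a1 and Col4a2 share a chromosome as well as a promoter, and chromosome 8 was high in clone 10 (0.26) and low in clone 11 (-0.19). Less the chromosome median, the range of Col4a1 was 1.52 in place of 1.97, and that of Col4a2 was 2.20 in place of 2.36. Clone 10 held 1.45 (1.35 to 1.57) times the Col4a1 of clone 11 as measured. Less the chromosome median, Col4a1 lay 1.12 and 1.03 log2 units above its median clone in clones 10 and 11, in place of 1.33 and 0.79. For Col4a2 the same values were 1.54 and 1.73 in place of 1.87 and 1.61, so that clone 11 was then the higher one. The part of the chromosome in the difference between those 2 clones was not tested beyond these values.

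The 2 chains did not keep 1 proportion. Per transcript length, the TPM ratio of Col4a1 to Col4a2 was 3.39, 4.37, 4.63, 2.71, 3.14, 2.03, 4.92, 3.91 and 3.7. In plain counts Col4a1 took 68.5% (66.2 to 70.6) of both genes' counts in clone 11 and 72.5% (70.7 to 74.3) in clone 10, exact 95% binomial intervals in parentheses. The highest share was 81.6% (78.6 to 84.4) in clone 1. Clone 11 was lowest on both scales, whereas the highest clone was 13 by TPM and 1 by counts, so the order among the other clones is not settled by these values.

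Among the laminin alpha chains, Lama5 and Lama1 were the abundant ones. Lama5 was at 299, 350, 328, 335, 293, 357, 294, 452 and 351 CPM (1.54-fold, 95% interval 1.48 to 1.61, from clone 10 to clone 14). The other clones lay between 293 and 357 CPM, so that clone 14 alone stood high. Lama1, the alpha chain of the early embryonic trimer, was at 218, 134, 188, 222, 115, 124, 224, 212 and 206 CPM (1.95-fold, 95% interval 1.83 to 2.07, from clone 10 to clone 13). Its 3 lowest values were in clones 4, 10 and 11, at 115 to 134 CPM, and the other 6 clones lay at 188 to 224 CPM. Those clones were the 3 lowest in 3.66% of all genes. The TPM ratio of Lama5 to Lama1 was 1.18, 2.05, 1.46, 1.26, 2.01, 2.3, 1.14, 1.78 and 1.51, lowest in clones 1, 8 and 13 and at 2 or more in clones 4, 10 and 11. Lama5 was above Lama1 per transcript length in every clone.

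The other alpha chains were low. Lama3, the alpha chain of the epithelial anchoring laminin, was at 1.95, 3.58, 3.42, 1.5, 2.9, 5.03, 1.96, 1.46 and 1.08 CPM, highest in clone 11 and lowest in clones 8, 14 and 17 (4.67-fold, 95% interval 2.65 to 8.77). Its range of 2.08 fell to 1.61 without clone 11 and to 1.69 without clone 17, so the call of 2 or more rests on those clones. Between 30.6 and 95.8% of its counts went to a shorter transcript that starts inside the gene, at position 12504199. Lama4, the alpha chain of vessel and mesenchyme laminins, was lowest in clone 1 at 0.975 CPM and highest in clone 11 at 4.19 CPM. Lama2, the muscle chain, did not pass the filter and reached 0.559 CPM.

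Of the beta chains, Lamb1 was the main one, at 185, 239, 199, 186, 208, 228, 215, 227 and 151 CPM (1.59-fold, 95% interval 1.5 to 1.68, from clone 17 to clone 4). Clone 17 was lowest, at 151 CPM, and the other 8 lay between 185 and 239 CPM. Lamb2, the beta chain of synapse and kidney laminins, was at 27.5, 32.8, 28, 39.2, 30.4, 28.7, 29.8, 36.5 and 39.7 CPM, with its 3 highest values in clones 8, 14 and 17. By TPM its highest clone was 10 (15.9), and clone 14 was at 10.3. Lamb3, the partner of Lama3 in the anchoring laminin, was at 3.44, 2.95, 3.01, 2.29, 6.15, 5.28, 2.19, 3.32 and 3.19 CPM and highest in clones 10 and 11. By TPM this order did not hold for Lamb3: clone 14 was highest (4.5), with 2.47 and 3.22 in clones 10 and 11.

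Of the gamma chains, Lamc1, which enters nearly all laminins, was at 307, 371, 442, 563, 400, 412, 404, 591 and 569 CPM (1.93-fold, 95% interval 1.85 to 2.01, from clone 1 to clone 14). Clones 8, 14 and 17 were the 3 highest, at 563 to 591 CPM, as they were in 13.2% of all genes. The other 6 lay at 307 to 442 CPM. Lamc3 did not pass the filter and reached 0.217 CPM.

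Taken as subunits, the chains of the early trimer were not in equal supply per transcript length. Lamc1 was above Lamb1 and Lamb1 above Lama1 by TPM in every clone. The ratio of Lama1 to Lamc1 was lowest in clone 10 (0.212) and highest in clone 1 (0.472). The ratio of Lamb1 to Lamc1 was lowest in clone 17 (0.311) and highest in clone 4 (0.788). Of the anchoring laminin, Lama3 stood at 0.179 to 1.35 TPM and Lamb3 at 0.786 to 4.5 TPM. Summed over all 11 genes, laminin transcripts differed 1.45-fold (1059 CPM in clone 1, 1540 CPM in clone 14).

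**Figure D2:**
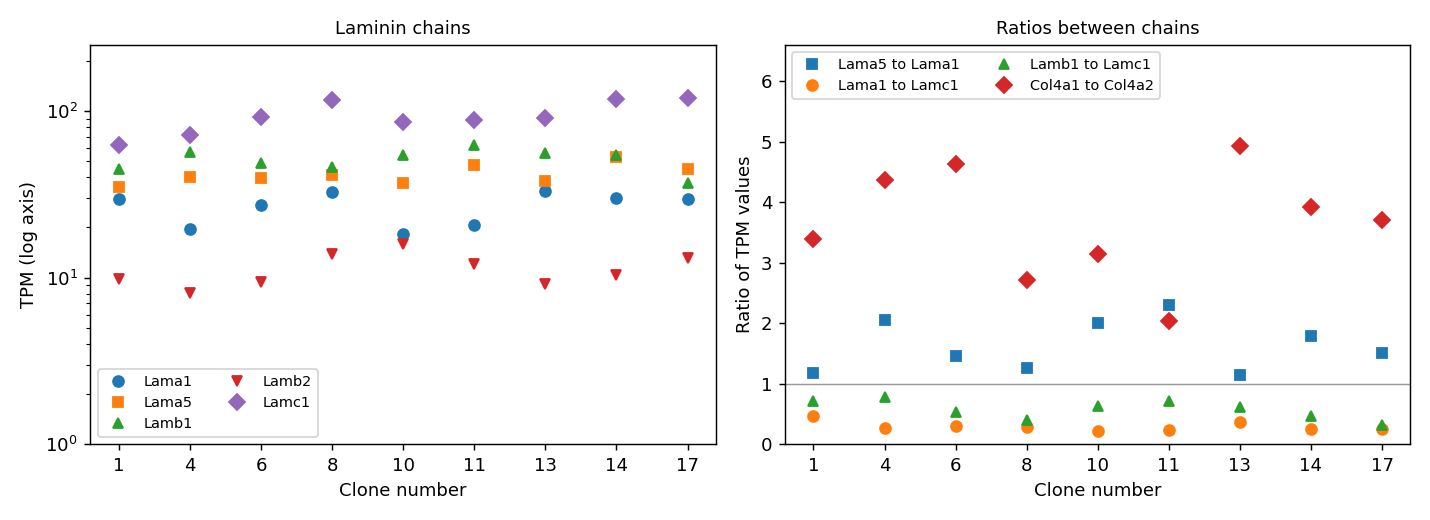
Left, TPM (log axis) of 5 abundant laminin genes in each of the 9 clones, 1 point per library. Right, TPM ratios between chains in the same clones, with a line at 1. Lamc1 is the highest laminin in every clone, and the ratio of Lama5 to Lama1 runs from 1.14 in clone 13 to 2.30 in clone 11.

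The widest ranges were among the fibrillar collagens. Type I collagen, the main protein of bone, skin and tendon fibres, is made of Col1a1 and Col1a2 chains. Col1a1 (chromosome 11, 94936224 to 94953042, plus strand) was at 2.34, 7.17, 2.65, 1.07, 33.4, 42.5, 2.27, 0.656 and 0.719 CPM, a range of 5.73 (64.7-fold, 95% interval 33.9 to 142, from clone 14 to clone 11). Clones 10 and 11 were highest, clone 4 came next at 7.17 CPM, and clones 8, 14 and 17 were lowest at 1.07 CPM or less. Col1a2 (chromosome 6, 4504814 to 4541544, plus strand) was at 1.17, 1.45, 0.419, 0.285, 8.76, 7.9, 0.831, 0.292 and 0.0719 CPM and had the same 3 highest and 3 lowest clones, with 1 count in clone 17 (122-fold, interval 21.5 to 4857). By TPM Col1a1 was 3.54 and 4.08 times Col1a2 in clones 10 and 11, the only clones with more than 100 counts of both. Less the median of chromosome 11, the range of Col1a1 was 5.33.

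Col3a1, the chain of type III collagen, lies on chromosome 1 at 45311538 to 45349706 and was at 0.39, 1.07, 0.14, 0.143, 4.2, 4.4, 0.0755, 0.0729 and 0 CPM. It had no count in clone 17 and was at least 20.4-fold higher in clone 11, taking 3 counts for clone 17. Its neighbour Col5a2, 24614 bases away and tail to tail with it, was at 3.22, 2.29, 2.65, 0.999, 14.1, 6.29, 2.34, 1.6 and 0.862 CPM, a range of 3.81 (16.3-fold, 95% interval 9.12 to 32.1, from clone 17 to clone 10). Both were highest in clones 10 and 11, but Col5a2 was 2.23 (1.73 to 2.9) times as high in clone 10 as in clone 11, and for Col3a1 this ratio was 0.954 (0.656 to 1.39). Col5a1, the main chain of type V collagen, which starts the growth of type I fibres, was at 27.6, 30.8, 24.4, 14.6, 59.5, 68.1, 29, 19.2 and 19.7 CPM (4.68-fold, 95% interval 4.02 to 5.47, from clone 8 to clone 11). It had the highest mean TPM of the fibrillar genes (2.44 to 12.3 TPM), although Col2a1 was above it in clones 4, 8 and 14 and Col11a1 in clones 8, 14 and 17. Without clone 8 its range was 1.85 in place of 2.21.

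The windows of Col1a2 and Col3a1 are printed beside that of Lama5 because the first pair had some of the widest ranges of all members and Lama5 the smallest range among the alpha chains. They are from the same RefSeq table, with capitals as above.
Col1a2 (chr6:4505368-4505667, plus strand): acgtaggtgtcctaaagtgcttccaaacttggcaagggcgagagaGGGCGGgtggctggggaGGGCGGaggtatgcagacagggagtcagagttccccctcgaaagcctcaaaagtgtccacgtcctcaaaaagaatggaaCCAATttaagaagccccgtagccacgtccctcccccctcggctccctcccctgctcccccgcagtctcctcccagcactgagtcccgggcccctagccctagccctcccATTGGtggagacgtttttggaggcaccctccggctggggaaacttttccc
Col3a1 (chr1:45311288-45311587, plus strand): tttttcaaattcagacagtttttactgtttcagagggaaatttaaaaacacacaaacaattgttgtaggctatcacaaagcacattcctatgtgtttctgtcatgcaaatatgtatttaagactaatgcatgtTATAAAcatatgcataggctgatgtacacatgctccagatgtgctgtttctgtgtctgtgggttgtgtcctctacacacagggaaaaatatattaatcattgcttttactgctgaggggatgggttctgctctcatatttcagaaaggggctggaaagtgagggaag
Lama5 (chr2:180225810-180226109, minus strand): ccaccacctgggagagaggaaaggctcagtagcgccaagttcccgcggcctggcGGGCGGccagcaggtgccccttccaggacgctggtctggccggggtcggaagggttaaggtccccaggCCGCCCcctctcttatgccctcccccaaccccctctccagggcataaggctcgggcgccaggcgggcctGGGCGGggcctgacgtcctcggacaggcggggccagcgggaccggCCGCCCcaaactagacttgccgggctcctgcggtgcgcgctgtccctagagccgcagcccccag
Col1a2 holds 2 GGGCGG and 2 CCAAT (1 reversed), Col3a1 a single TATAAA, and Lama5 4 GGGCGG (2 reversed) with neither of the others. The RefSeq start of Col1a2 used here lies 804 bases downstream of the start of the GENCODE gene, whereas those of Col3a1 and Lama5 are the same in both. The transcript that took 57.9 to 100% of Col1a2 counts starts at 4505493, inside the printed window. Both CCAAT matches, at 4505509 and 4505618, lie after that transcript's start. The GC content of the windows, in the order printed, is 61.0%, 37.7% and 72.7%.

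Col2a1 had clones 4, 10 and 11 as its 3 highest, as type I collagen had, but with clone 4 on top, while Col5a3 and Col11a1 had other clones highest. Col2a1, the cartilage fibre, was at 10.3, 23.1, 11.4, 10.1, 17.2, 14.5, 12.5, 13.6 and 5.89 CPM, highest in clone 4 and lowest in clone 17 (3.92-fold, 95% interval 3.06 to 5.07). Without clone 17 its range was 1.18 in place of 1.94. Col5a3, the remaining type V chain, was highest in clone 17 (12.9 CPM) and lowest in clones 4, 10 and 11 (5.11, 4.71 and 3.21 CPM), whereas Col5a1 and Col5a2 were highest in clones 10 and 11. Col11a1 lay between 6.79 and 14.1 CPM, with clones 8, 14 and 17 highest, and Col27a1 between 5.06 and 8.03 CPM. Col11a2 and Col24a1 did not pass the filter (at most 1.39 and 0.279 CPM). Summed fibrillar transcripts stood at 67.7, 83.7, 67.3, 54.3, 160, 166, 69.6, 63.6 and 62.4 CPM, a 3.05-fold span.

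**Figure D3:**
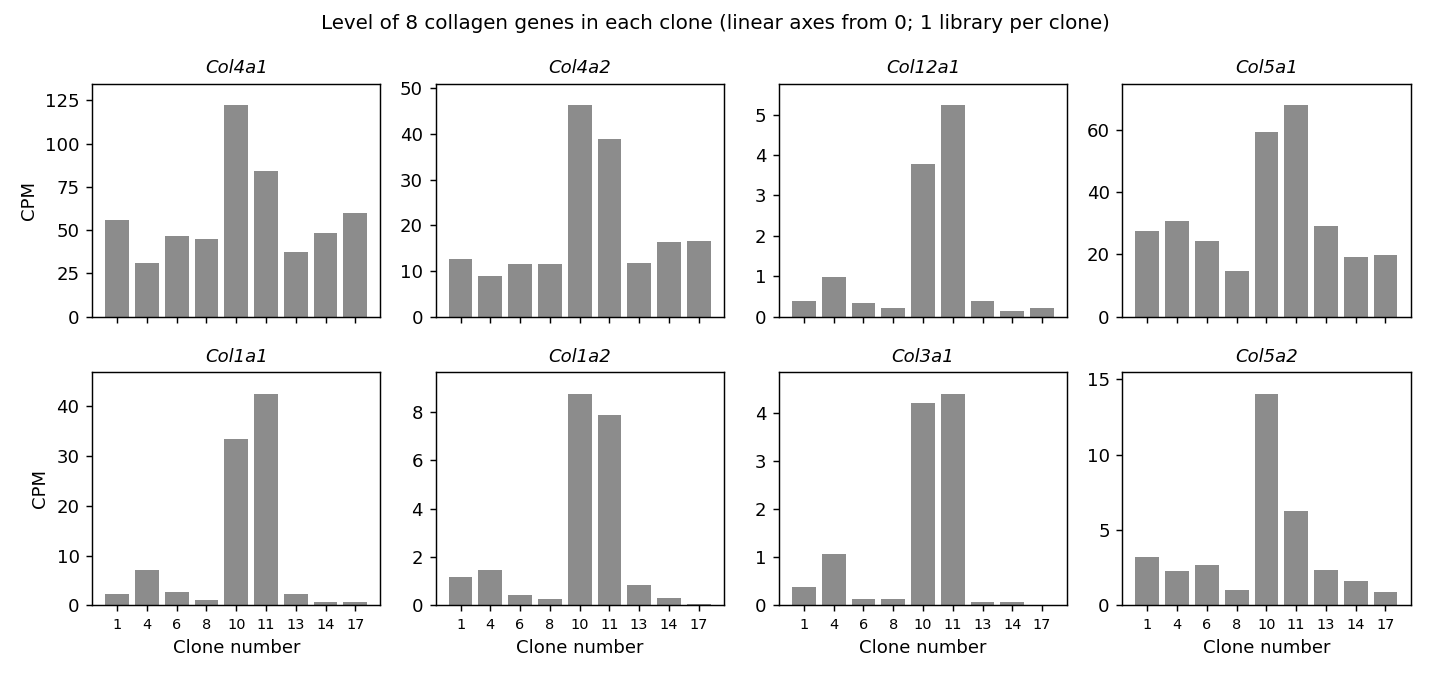
Level (CPM, linear axes from 0) of 8 members in each of the 9 clones, 1 library per bar. All 8 are highest in clones 10 and 11. Col1a1 reaches 42.5 CPM in clone 11 against 7.17 CPM in clone 4, the next clone, while Col4a1 reaches 122 CPM in clone 10 over a level of 31.1 to 60.1 CPM in the 7 other clones.

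Collagens that bind to fibres gave mixed orders. Col12a1, a fibril-associated chain of loaded tissues such as tendon, was at 0.39, 0.991, 0.349, 0.214, 3.77, 5.24, 0.378, 0.146 and 0.216 CPM, a range of 4.19, and its lowest value, in clone 14, rests on 2 counts (35.9-fold, interval 9.61 to 302). It was highest in clones 10 and 11 and next in clone 4, as Col1a1 was. Col14a1, also fibril-associated, was at 3.71, 2.13, 3.56, 0.999, 1.16, 0.838, 4.38, 0.51 and 0.575 CPM (8.58-fold, 95% interval 3.91 to 22.3, from clone 14 to clone 13). Here clones 1, 6 and 13 were the 3 highest, and clone 10 was the median clone, with clones 8, 11, 14 and 17 below it. Col9a2, a chain of cartilage type IX collagen, was the most abundant of the class at 29.5, 32.8, 31, 14.6, 20.2, 18.7, 21.8, 21.9 and 15.2 CPM (2.24-fold, 95% interval 1.89 to 2.66, from clone 8 to clone 4). Its partner Col9a3 was at 2.41, 2.42, 1.85, 1.94, 3.67, 1.58, 2.25, 2.17 and 2.42 CPM, with clone 10 alone above 2.42 CPM, and Col22a1, of tissue junctions and not past the test of counting noise, was at 3.17, 3.07, 3.61, 2.43, 3.24, 3.14, 2.32, 3.05 and 2.18 CPM. Col16a1 was highest in clones 10 and 11 (1.96 and 2.31 CPM).

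Type VI collagen, which forms beaded filaments around cells, was low. Col6a1 was at 1.07, 1.07, 0.977, 0.428, 1.45, 1.75, 0.755, 1.09 and 0.79 CPM and Col6a2 reached 2.38 CPM, both highest in clones 10 and 11. Col6a4 was at 5.95, 6.02, 4.95, 2.07, 3.55, 4.75, 4.98, 2.04 and 2.73 CPM, highest in clones 1 and 4 and lowest in clones 8, 14 and 17. Col6a5 was at 1.56, 3.57, 2.37, 0.642, 2.97, 2.45, 1.66, 0.948 and 1.29 CPM (5.55-fold, 95% interval 2.7 to 12.9, from clone 8 to clone 4), and its range of 2.23 was 1.98 without clone 4 and 1.78 without clone 8. Summed type VI transcripts were lowest in clones 8, 14 and 17, at 4.21, 5.18 and 5.76 CPM, and lay between 9.79 and 13.1 CPM in the other 6. Col6a3, needed with Col6a1 and Col6a2 for the classical trimer, did not pass the filter and reached 0.686 CPM.

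Col18a1, whose product carries heparan sulfate and holds the endostatin fragment at its end, was the most abundant member in every clone. It was at 793, 867, 810, 737, 701, 749, 731, 1007 and 877 CPM (1.44-fold, 95% interval 1.4 to 1.47, from clone 10 to clone 14) and at 219 to 301 TPM. Clone 14 was highest at 1007 CPM, and the other 8 lay between 701 and 877 CPM. Between 97.4 and 98.2% of its counts went to 1 transcript, which starts at the gene's outer end, position 77166548 on chromosome 10. Col15a1, the other multiplexin, did not pass the filter (0.503 CPM at most).

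Among the rest, Col7a1, the anchoring fibril of skin, was at 2.34, 5.87, 4.53, 5.92, 12.5, 13.8, 4.83, 9.7 and 9.2 CPM (5.88-fold, 95% interval 3.84 to 9.4, from clone 1 to clone 11). It was highest in clones 10 and 11, and without clone 1 its range was 1.58 in place of 2.48. Col26a1 was at 2.63, 1.84, 1.66, 1.14, 2.12, 2.24, 1.25, 0.713 and 1.68 CPM and lowest in clone 14, and a retained-intron transcript held 23.4 to 72.4% of its counts. Col13a1, a transmembrane collagen of cell contacts, was at 2.24, 1.07, 1.33, 3, 0.724, 1.05, 0.831, 3.14 and 1.87 CPM and was highest in clones 1, 8 and 14. Of the other membrane types, Col17a1, the hemidesmosome collagen, was at 1.56, 2.59, 1.67, 1.36, 1.3, 1.12, 0.755, 0.656 and 0.934 CPM and Col23a1 at 3.12, 1.91, 1.26, 1.28, 2.1, 2.59, 1.81, 2.04 and 1.72 CPM. Col8a2, of the short-chain networks, was at 3.8, 2.97, 3.07, 2.64, 2.1, 1.89, 3.4, 3.06 and 3.59 CPM and was lowest in clones 10 and 11. As it did not pass the test of counting noise, that order may be counting error.

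The 8 other members below 1 CPM on average were Col6a6, Col8a1, Col9a1, Col10a1, Col19a1, Col20a1, Col25a1 and Col28a1. Col8a1 had no count in 3 clones and 1.75 CPM in clone 10, and Col9a1 reached 1.22 CPM in clone 4. Col20a1 and Col6a6 reached 1.21 and 1.19 CPM. None of the remaining 4 exceeded 0.709 CPM in any clone. Levels up to 0.293 CPM are within what a count of 0 allows at this depth.

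Clones 10 and 11 were the 2 highest in 17 of the 38 members, where 10.4% of all genes have that pair on top. They included Col4a1, Col4a2, Col4a5, Lama4, Lamb3, Col1a1, Col1a2, Col3a1, Col5a1, Col5a2, Col27a1, Col12a1, Col16a1, Col6a1, Col6a2 and Col7a1. The filter takes the mean over all clones, so a gene can pass it through clones 10 and 11. Col12a1, Col1a2, Col3a1, Col4a5, Col6a1, Col6a2 and Col16a1 averaged less than 1 CPM over the other clones. Without a filter the pair was highest in 19 of 55 members, against 8.02% of genes. By log2(TPM + 1) it was highest in 16 members, against 13.1% of genes, and there Lamb3 had clone 14 highest. The gap between the pair and the next clone was widest for Col1a2 (2.33 log2 units), Col1a1 (2.20), Col3a1 (1.84) and Col12a1 (1.78), and only 0.04 for Col27a1. By TPM the gap of Col3a1 was small, with 1.82 in clone 4 beside 1.88 and 2.00 in clones 10 and 11. Clones 8, 14 and 17 were the 3 lowest in 9 members, namely Col1a1, Col1a2, Col5a1, Col5a2, Col12a1, Col6a2, Col6a4, Col6a5 and Lama3, against 14.1% of all genes. They were the 3 highest in 3 members, Lamc1, Lamb2 and Col11a1, against 13.2% of all genes. By TPM, however, clone 10 was highest for Lamb2 (15.9), and clone 11 (2.66) was just above clone 8 (2.62) for Col11a1. Both sets of clones had been noticed in earlier results of these libraries, so these counts describe a known division.

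In total level the clones were much closer. Summed over all 55 genes, member transcripts were at 2060, 2215, 2212, 2257, 2221, 2329, 2097, 2732 and 2405 CPM, a 1.33-fold span from clone 1 to clone 14, or 0.197 to 0.271% of all gene counts. Col18a1, Lamc1, Lama5, Lamb1 and Lama1 dominate that sum, and none of them had a range of 1 or more.

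**Figure D4:**
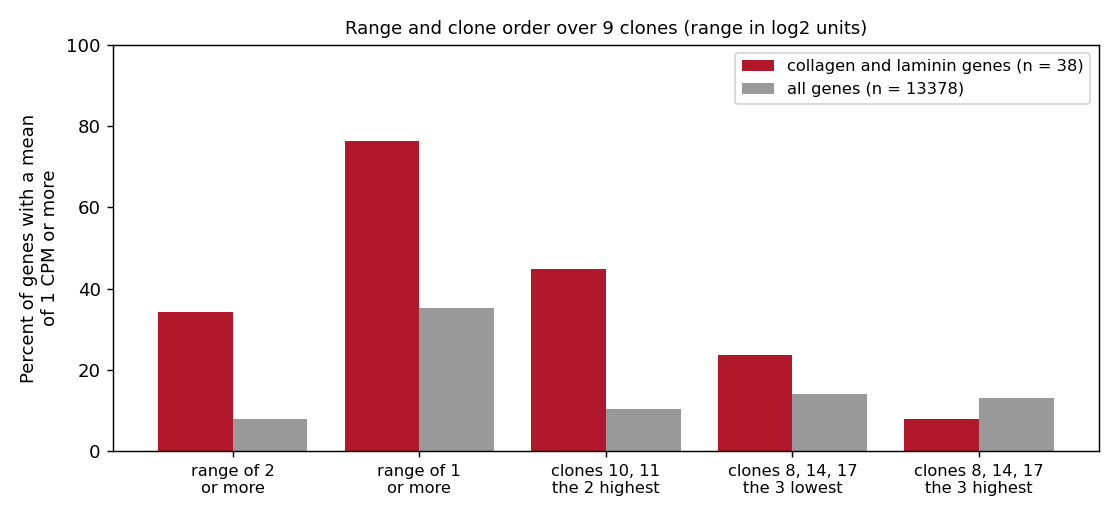
Percent of genes passing the filter of 1 CPM that meet each of 5 descriptions, for the 38 members (red) and all 13378 genes (grey). Members exceed all genes for both ranges (13 and 29 of 38, against 7.92 and 35.3%), for clones 10 and 11 on top (17 of 38 against 10.4%) and for clones 8, 14 and 17 at the bottom (9 of 38 against 14.1%), and lie below them for clones 8, 14 and 17 on top (3 of 38 against 13.2%).

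Clones 10 and 11, alike in the order above, differed in single chains by more than counting error. Clone 10 was above clone 11, with the interval of the ratio in parentheses, in Col5a2 at 2.23 (1.73 to 2.9), Col9a3 at 2.33 (1.38 to 3.94), Col4a5 at 1.48 (1.01 to 2.18) and Col4a2 at 1.2 (1.07 to 1.34), where the last turned round less the chromosome median. Clone 11 was above clone 10 in Lama3, where the ratio of clone 10 to clone 11 was 0.576 (0.381 to 0.859), in Col1a1 at 0.786 (0.695 to 0.889), and in Lama5 at 0.82 (0.787 to 0.855). Of 38 such ratios, 12 had an interval that left out 1, without adjustment for their number, and for Col3a1 and Col1a2 the interval held 1. By TPM, Col5a2 was at 3.06 and 2.07 in clones 10 and 11, and Col9a3 at 2.15 and 1.47. With 1 library each, these ratios compare libraries.

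Of 34 genes that help to build collagen, 29 passed the filter. A range of 2 or more was seen in 4, one of 1 or more in 13, and clones 10 and 11 on top in 9. Over all genes these shares were 7.92, 35.3 and 10.4%. The median range of the list was 0.95, beside 1.84 for the members and 0.78 for all genes. Serpinh1, the collagen chaperone of the endoplasmic reticulum, was at 20.4, 16.2, 20, 15.1, 60.6, 51.3, 18, 11.7 and 18.5 CPM, and clones 10 and 11 exceeded every other clone by more than 2-fold. Bmp1, the protease that trims fibrillar procollagen, reached 22 and 24.4 CPM in clones 10 and 11 and lay at 7.43 CPM or less elsewhere. Tll1, a related protease on chromosome 8, ranged from 0.473 to 4.1 CPM and was highest in clones 8 and 17. Loxl4, of the crosslinking lysyl oxidases, ranged from 0.948 to 6.92 CPM with clones 10 and 11 highest, while Lox did not pass the filter (1.09 CPM at most). Orders differed among genes of the prolyl hydroxylase families. P3h4 (7.33 to 15.8 CPM), a family member by name, was highest in clones 10 and 11. P4ha1 (29.3 to 56.7 CPM) was highest in clones 1 and 4 and P4ha2 (7.92 to 23.8 CPM) in clones 1 and 13.

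Among 19 partners in basement membranes, 15 passed the filter, 3 had a range of 2 or more (Tinagl1, Fras1 and Fbln2, at 2.17, 2.10 and 2.06), and 5 were highest in clones 10 and 11 (7.92 and 10.4% of all genes), with a median range of 1.11. Sparc, a collagen-binding protein, was at 247, 284, 248, 122, 291, 306, 259, 148 and 151 CPM, highest in clones 10 and 11 and lowest in clones 8, 14 and 17, where the median deviation of the genes of its chromosome, 11, was -0.40, -0.36 and -0.39 log2 units. Nid1, which bridges laminin and type IV collagen, was at 181, 156, 174, 149, 92.9, 125, 189, 145 and 159 CPM, lowest in clones 10 and 11. Hspg2, perlecan, was at 290, 266, 298, 374, 317, 501, 285, 551 and 463 CPM, highest in clones 14, 11 and 17. Neither Nid1 nor Hspg2 had the 2 highest clones of the type IV chains.

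Of 19 interstitial matrix genes, 10 passed the filter, and the widest ranges were those of Tnc (6.07), Thbs1 (4.68) and Mfap5 (3.27). Thbs1, a matrix regulator of adhesion, was at 9.56, 23.9, 11, 7.57, 141, 178, 11.3, 11 and 6.83 CPM. Tnc, tenascin C, reached 4.64 and 9.85 CPM in clones 10 and 11 and had no count in clone 17. Fn1, fibronectin, was abundant, at 507 to 861 CPM. Of 20 proteases and inhibitors, 15 passed and 7 were highest in clones 10 and 11 (10.4% of all genes), with Timp2 (3.27) and Plau (2.56) among the widest ranges.

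Receptors for these ligands were measured as well: 12 of 15 passed the filter, 3 had a range of 2 or more, and 3 were highest in clones 10 and 11 (7.92 and 10.4% of all genes). Itga3, which pairs with Itgb1 to bind laminins with the Lama3 or Lama5 chain, was at 41.4, 36.9, 43.9, 52.8, 158, 181, 50.4, 55 and 68.5 CPM. Itga6, the other main laminin receptor chain, lay between 167 and 271 CPM, and Dag1, dystroglycan, between 165 and 222 CPM. Itgb1, on chromosome 8, ranged from 128 to 355 CPM and was highest in clones 10 and 17. Cd44 and Ddr2, a hyaluronan and a collagen receptor, ranged most (4.52 and 2.76), with Ddr2 highest in clones 4 and 6.

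**Figure D5:**
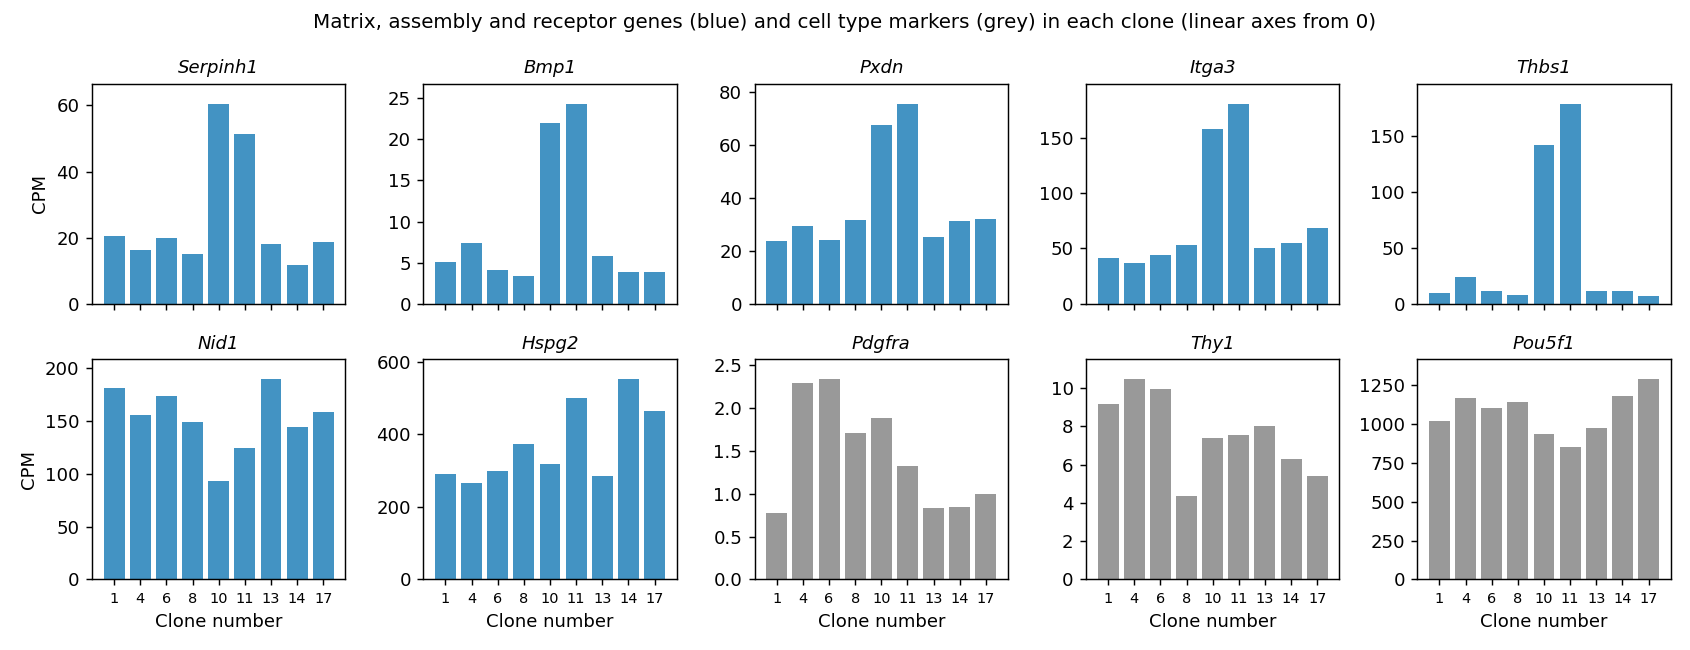
Level (CPM, linear axes from 0) of 7 matrix, assembly and receptor genes (blue) and 3 cell type markers (grey) in each of the 9 clones. Serpinh1, Bmp1, Pxdn, Itga3 and Thbs1 are highest in clones 10 and 11, and Nid1 is lowest there. The fibroblast markers Pdgfra and Thy1 and the stem cell marker Pou5f1 do not have clones 10 and 11 on top. Markers that do have that pair on top are not drawn. They include Twist2 and Postn (fibroblast, below the filter), Krt8, Krt18, Cdx2 and Hand1 (trophoblast) and Dab2 (endoderm).

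Markers of other cell types that make these proteins were examined in the same libraries. Of 14 fibroblast markers, 6 passed the filter and none of those 6 had clones 10 and 11 as the 2 highest, where 10.4% of all genes do. Below the filter, Twist2 (0.579 and 0.838 CPM, at most 0.14 CPM elsewhere) and Postn (0.0724 and 0.489 CPM, no count elsewhere) had that pair on top. Dpt had no count anywhere, and Lum and Dcn reached at most 0.0762 and 0.629 CPM. The summed level of that list was lowest in clone 8 (42.8 CPM) and highest in clone 4 (74.9 CPM), with 44.8 and 51.1 CPM in clones 10 and 11. Fbln1 alone, at 23.5 to 51.7 CPM and lowest in clone 10, gave most of that sum, so its order is largely that of 1 gene. Mfap5, Twist1 and Pdgfrb, its most variable genes that passed, were at most at 3.41, 3.23 and 5.79 CPM.

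Endoderm that lays down the thick embryonic basement membrane is another source of type IV collagen and laminin. Of 16 parietal and primitive endoderm markers, 10 passed, 5 had a range of 2 or more (7.92% of all genes) and 4 were highest in clones 10 and 11 (10.4% of all genes). The 4 were Sparc, Dab2 (3.84 and 7.83 CPM, at most 3.42 CPM elsewhere), Plat (3.56 and 2.38 CPM, at most 2.28 CPM elsewhere) and Thbd (2.17 and 1.4 CPM, at most 1.26 CPM elsewhere). The list's sum was lowest in clone 8 at 138 CPM and highest in clones 10 and 11 at 311 and 327 CPM, mostly Sparc. Gata6 and Sox17 did not pass the filter (1.27 and 0.652 CPM at most), Ttr and Afp reached at most 0.14 and 0.0975 CPM, and Hnf4a was lowest in clones 10 and 11 (0.435 and 0.349 CPM). Amn (0.5 to 3.32 CPM), Sox7 (0.534 to 3.02 CPM) and Hnf4a had the widest ranges.

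Of 12 trophoblast markers, 10 passed and 5 had a range of 2 or more (7.92% of all genes). Krt7, Krt8, Krt18, Cdx2 and Hand1 were highest in clones 10 and 11 (10.4% of all genes), and Ascl2, Tfap2c, Gata3, Plet1 and Eomes were not. The list's sum was 512 and 552 CPM in clones 10 and 11 against 75.7 to 175 CPM in the other clones. Krt8 and Krt18, keratins of simple epithelia that other cells also make, gave most of that sum. In clones 10 and 11, Krt8 was at 278 and 278 CPM and Krt18 at 167 and 182 CPM. Hand1 and Cdx2 were highest in the pair but at 3.14 and 5.66 CPM at most, Elf5 did not pass the filter, and Prl3d1 had no count in any clone. Of 10 endothelial markers, 6 passed and none of those had clones 10 and 11 highest (sum 84.6 to 234 CPM, highest in clone 1, led by Pecam1). Kdr (3.18) and Cldn5 (2.33) ranged most, and Emcn had no count. The stem cell list summed to 4148 and 3858 CPM in clones 10 and 11, its lowest values, against 5402 to 6000 CPM elsewhere, and Fgf4 (1.16), Nanog (1.11) and Dppa5a (1.07) ranged most. Dppa5a (982 to 2065 CPM) was the largest part of that sum. Pou5f1, Sox2, Nanog, Esrrb, Dppa5a and Fgf4 were lowest in clones 10 and 11, whereas Tdgf1, Utf1, Zfp42 and Klf4 did not have both clones lowest. The part of any such cells in the collagen levels was not tested. The lists overlap: Sparc and Plat of the endoderm list, and Fbln1, Dcn, Lum, Postn and Mfap5 of the fibroblast list, are also in the matrix lists above, and Pdgfra is in both of these marker lists.

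Genes whose profile over the 9 clones was nearest to chosen members are named by the root mean square difference of centred log2 CPM, among genes of at least 5 CPM. For Col4a1 they were Dusp4 (0.22), Bhlhe40, Fam199x, Fkbp10 and Tcaf1, against a median of 0.63 over all genes. Dusp4 lies on chromosome 8 too, and all 5 were nearer than Col4a2 (0.38). For Lama1 they included Fam198b (0.10), Fxyd6, Abcc4 and Hibadh, all at lower levels in clones 4, 10 and 11. Those of Lamb1 were Dicer1 (0.10), Timmdc1, Vps13c, Zfp74 and Asxl1, and Dicer1 shares chromosome 12 with it.

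The nearest to Lamc1 were Msl2 (0.06), Clk3, Gtf2i, Usp54 and Me1. Lama5 was nearest to Trmt2a (0.08), Tgif2, Neil1, Ubald1 and Rbbp7, and its nearest member was Col18a1 (0.10), which also had clone 14 highest. For Col1a1 the nearest were Krt18 (0.60), Thbs1, T, Tagln and Gbp2b, against a median of 2.11. All were nearer than Col5a1 (1.46), the nearest member of at least 5 CPM. Col1a2, Col3a1 and Col12a1, which had the same 3 highest clones as Col1a1, averaged less than 5 CPM and were not compared. The likenesses are descriptions over 9 libraries, in which many genes share the same clone order.

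Neighbouring members sometimes shared their highest clones. Within 500000 bases, 13 neighbouring pairs of members were found, and 8 had both genes above the filter. In Col4a1 with Col4a2, Col3a1 with Col5a2, and Col6a2 with Col6a1, both genes had clones 10 and 11 on top. Those clones were on top in 17 of the 38 members, and neighbours were not compared with members further apart. Pairs that did not share the 2 highest clones included Col6a5 with Col6a4, Col6a1 with Col18a1, Lama5 with Col9a3, and Lamb2 with Col7a1. Of the other type IV pairs, Col4a4 and Col4a3 are 71 bases apart and neither passed the filter, and Col4a6 and Col4a5 are 1308 bases apart and only Col4a5 passed.

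Promoter windows were found for 40 of the 55 members (44 windows, 25 members above the filter). GGGCGG on either strand was in 26 of the 44 windows (59.1%), against 35.7% of 32851 RefSeq windows of that length. CCAAT was in 14 windows (31.8%, against 37.4%) and TATAAA in 5 (11.4%, against 13.6%). Member windows had a median GC content of 59.5% and 10.5 CpG, against 52.7% and 7 for all windows. No match says only that these letters are not in this window of the reference.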

How the data were processed

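The 9 libraries, 1 for each E14 clone, came from a strand-specific poly(A) kit, per the labels' protocols. CASAVA 1.8, FastQC, Trimmomatic 0.33 and kallisto 0.43.1 are named in the submitters' processing notes. The deposited tables, 1 per clone, hold estimated counts and TPM (per length and library) of 115270 transcripts, per the file headers. Both were made by the authors with kallisto, which shares reads out among alike isoforms.

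By their Ensembl identifiers, 113580 transcripts (98.53%) had an entry in GENCODE M21 (GRCm38), and estimated counts and TPM values were summed to 35580 genes. Levels are CPM with TMM factors and the edgeR 4.0.16 formula (prior count 2 on the log2 scale; R 4.3.3) for genes averaging at least 1 CPM. Folds carry exact conditional 95% intervals and shares of counts exact binomial (Clopper-Pearson) ones, which cover counting error only, and a count of 0 was taken as 3 counts. Counts were rounded for the Poisson chi-square over libraries (adjusted p under 0.05 taken as beyond noise). That p measures only the spread between libraries, which may be technical. Steps were tested on simulated data. Scripts ran under Python 3.11.15 with scipy 1.17.1.

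The members, gene lists and clone sets were chosen with earlier results of these data known. Named genes follow a fixed rule: values in every clone for members above the filter with a range of 2 or more, for the 3 of each class with the highest TPM and for 10 main chains; up to 3 genes of widest range per list with 11 set ones; and the 5 genes of nearest profile. A few genes that this rule would name are not reported here. Other members and list genes were named after their values were seen. Alternatives were DESeq2 1.42.0 size factors, a prior count of 0.5, no filter or one at 5 CPM, log2(TPM + 1), protein-coding transcripts, own-chromosome deviations and each clone left out. The ratio of counts in place of TPM was added after seeing the data. Promoter windows came from RefSeq (GRCm38.p6). Protein sequences were not used here.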

Additional observations from a re-analysis of the deposited data

Results flagged for a closer look

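In 2 members, 1 of the 9 clones lay far from the rest, by a gap to the nearest clone that exceeded Dixon's 95% critical share of the gene's whole range. Lama5 was at 452 CPM in clone 14, 0.34 log2 units above the next clone, a gap of 0.544 of its range. Col9a3 was at 3.67 CPM in clone 10, 0.57 log2 units above the next clone, a gap of 0.5 of its range. By TPM clone 10 did not stand apart for Col9a3: clone 13 was highest (2.53), above clones 10 (2.15) and 4 (1.95). Chance flags about 1 in 20 such sets of values, and 38 members were examined. Lama5 rests on 3070 to 6200 counts per clone, and without clone 14 its range was 0.29 in place of 0.63. Col9a3 rests on 23 counts in its lowest clone, and between 55.4 and 90.6% of its counts went to 1 protein-coding transcript.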

How the results depend on the processing

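Over the alternatives, 488 recomputed member ranges and 40 summed levels stayed within the counting interval of the value given and 44 and 8 did not, while 62 counts of members and 52 chain ratios stayed within 1.5 times and 9 and 3 did not. Without a filter, 45 members had a range of 1 or more (47.2% of all genes). At 5 CPM, 17 members passed, 5 had a range of 2 or more, 10 one of 1 or more, 7 had clones 10 and 11 highest and 17 exceeded counting noise (3.39, 23.2, 8.5 and 94.4% of genes). By log2(TPM + 1), which shrinks low genes, 2 members had a range of 2 or more and 18 one of 1 or more (3.17 and 27.8% of genes), and the fibrillar sum spanned 2.797-fold. With protein-coding transcripts alone 20 members had a range of 2 or more (9.18% of genes). There Col16a1 ranged 3.93 and Col27a1 2.22 in place of 1.56 and 0.65. The cause was not tested. Leaving out each clone gave sums spanning 3.089 to 4.229-fold for type IV, 1.29 to 1.457-fold for laminins, 2.707 to 3.06-fold for fibrillar chains and 1.169 to 1.329-fold for all members, and 10 to 13 members with a range of 2 or more. The ratio of Col1a1 to Col1a2 spanned 16.3-fold by TPM, 5-fold by counts or without clone 14, and 8.24-fold without clone 17. The count with clones 10 and 11 highest could not be computed without either clone. No paired analysis was possible because no clone has a group. Protein features were not run. Depth limits members under 1 CPM and chains with few counts in their lowest clone.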
